A study of Orbilia oligospora ATCC 24927 with 24 samples.

Results

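The genes described here are the histones and chromatin regulators of Arthrobotrys oligospora (strain ATCC 24927), a fungus whose hyphae form adhesive traps for nematodes. Members were chosen by words in the Swiss-Prot match that the deposited annotation gives each gene: histone, chromatin, SWI/SNF, Helicase swr1 or INO80, leaving out genes with a protein kinase domain. This left 68 genes of 11479 annotated ones, and all 68 were listed in both expression tables of the study. By the same annotation 9 members are histone proteins, 5 are histone chaperones or assembly factors, and 13 belong to histone acetylation. A further 6 belong to histone deacetylation, 10 to histone methylation and demethylation, 20 to chromatin remodelling complexes and 5 to none of these.

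Transcript levels were measured by RNA-seq of total RNA in 24 libraries of hyphae grown on potato dextrose agar, 3 in each of 8 groups. One experiment held libraries labelled PkaC1 deletion (AoPkaC1 encodes a catalytic subunit of PKA, the kinase that cAMP activates) and its own wild type. The other held libraries labelled Acy deletion (AoAcy, adenylate cyclase, which makes cAMP) and its own wild type. Each strain was sampled 12 h after nematode extract was added to induce traps, and untreated at 0 h; no untreated sample was taken at 12 h, so the extract and the added time cannot be told apart. The labels do not say how many independent transformants each deletion strain stands for. The series title names cAMP-PKA signalling, growth, conidiation and trap formation as its subject, and the comparisons below ask how the chromatin genes differ with each deletion and with induction.

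Eukaryotic DNA is wound on nucleosomes, octamers of the core histones H2A, H2B, H3 and H4, which the linker histone H1 binds from outside. Variants replace core histones at particular places: H2A.Z near promoters, and the H3-like CENP-A at centromeres. Chaperones carry histones to DNA, acetyltransferases, deacetylases and methyltransferases modify their tails, and ATP-driven remodelling complexes (RSC and SWI/SNF, INO80, SWR1) move or exchange them. Most core histone genes are transcribed mainly in S phase in the fungi studied. Gene roles below are those known for the Swiss-Prot match, mostly in budding yeast (Saccharomyces cerevisiae) or fission yeast (Schizosaccharomyces pombe), and none was shown here for Arthrobotrys.

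Values are TPM, length-normalised transcript shares that have the same sum in every library; a ± after a TPM mean is the SD and after a log2 fold change the SE, with n = 3 libraries per group. A member is called where limma's adjusted p over all tested genes of the experiment is under 0.05. Since TPM are shares, the median change of all tested genes was not 0 in most comparisons: the largest shifts were -0.72 on induction of the PkaC1 deletion libraries and 0.39 in induced Acy deletion against wild type libraries (log2). Counts are therefore also given with libraries scaled to the same median. In bulk libraries, fewer cells of a type and less RNA per cell cannot be told apart.

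Replicates differed in spread. The median coefficient of variation of members at 10 TPM or more was 4.97% in induced and 3.11% in untreated wild type libraries of the PkaC1 experiment, while the other 6 groups had 8.43% to 16.6%. Counts of calls are given again with the 3 libraries of each wild type group averaged into 1, which leaves the spread to be taken from the deletion libraries. The annotated adenylate cyclase, AOL_s00080g284, was still listed at 10.3 ± 0.906 TPM in untreated Acy deletion libraries, against 16.5 ± 0.777 TPM in their wild type, and at 11.5 ± 1.31 TPM in induced ones, against 13.3 ± 2.14 TPM, which overlap. The annotation gives PKA catalytic subunits as AOL_s00043g480 and AOL_s00078g405, and the labels do not say which is AoPkaC1. In untreated PkaC1 deletion libraries they averaged 48.5 and 51.2 TPM, against 69.6 and 57.1 TPM in wild type. The untreated groups of AOL_s00078g405 overlap. After induction AOL_s00043g480 averaged 25.0 TPM in PkaC1 deletion libraries, against 50.3 TPM in wild type, and AOL_s00078g405 averaged 25.0 TPM, against 25.9 TPM, which overlap. The deletion groups are therefore called by their labels. No marker of the 7 conidiation genes listed was at 0 in a whole group except AOL_s00007g374 in induced Acy deletion libraries. Their summed level was 7016 to 8852 TPM in induced wild type of the Acy experiment and at most 1446 TPM in its other libraries. It was 88.3 to 398 TPM in libraries of the PkaC1 experiment. The list mixes conidiophore regulators with matches to conidiation-specific and rodlet proteins. A sum follows its most abundant genes, so single genes may differ from it. The part of conidiation in the results below was not tested.

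The histone genes were among the most abundant members. Summed over all 9, they took 0.425% of the transcripts in induced PkaC1 deletion libraries and 0.563% in induced wild type, and 1.09% in untreated deletion libraries and 0.931% in untreated wild type. In the Acy experiment they took 1.51% in induced deletion libraries and 1.04% in induced wild type, and 1.75% in untreated deletion libraries and 1.27% in untreated wild type. Levels were compared within an experiment only. Histone H4.1 is encoded by a pair of genes with the same Swiss-Prot match and length, AOL_s00043g615 and AOL_s00117g1, so reads may be shared between them and their separate levels are uncertain. A further gene matching H4, AOL_s00006g399, has a longer coding sequence, and its group means were only 10.1 to 34 TPM. The numbering of neighbouring genes puts H3 (AOL_s00117g2) next to H4.1 (AOL_s00117g1), H2A (AOL_s00169g4) next to H2B (AOL_s00169g5), and the NuA4 acetyltransferase subunit yng2 (AOL_s00193g81) next to the deacetylase phd1 (AOL_s00193g82).

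**Figure D1:**
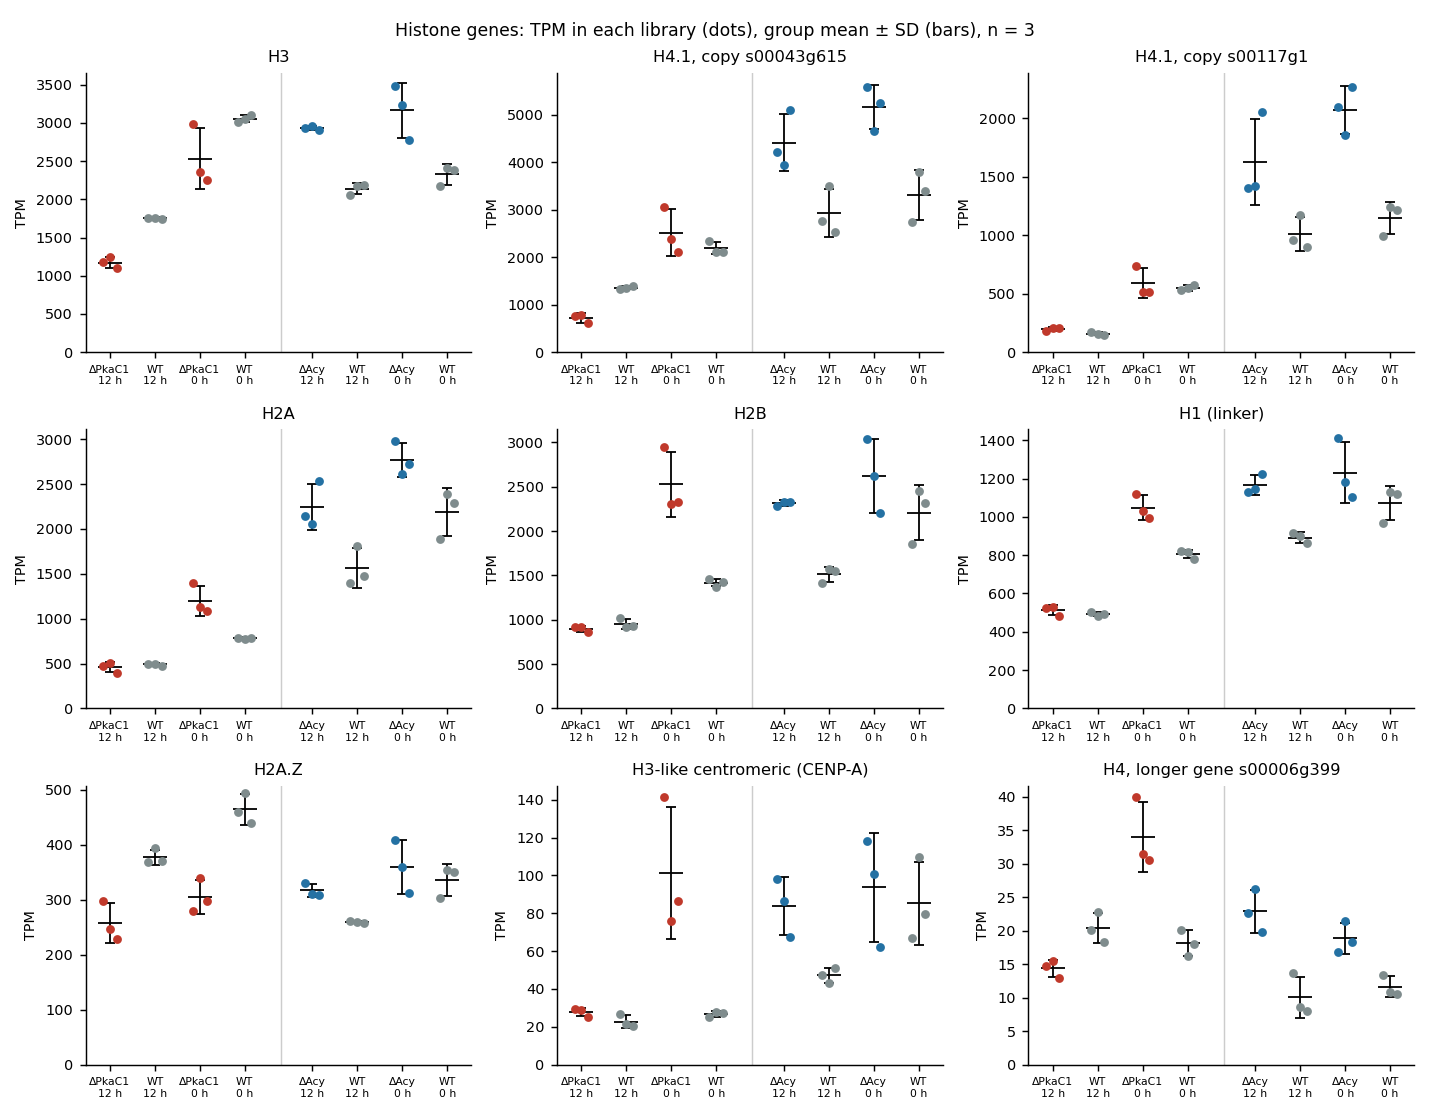
TPM of the 9 histone genes (y axis, linear, from 0) in every library of the 8 groups (x axis), with the group mean ± SD; red is PkaC1 deletion, blue Acy deletion and grey wild type, and 12 h is induced and 0 h untreated. CENP-A stands at 76.2 to 141 TPM in untreated PkaC1 deletion libraries, against 25.0 to 28.0 TPM in wild type. Most histones are lower in induced than in untreated PkaC1 deletion libraries. Against induced wild type some histones are lower in the induced deletion libraries and others are not.

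A few members were listed at 0. The matches to lysine-specific demethylase 1 (AOL_s00078g143), the PHD-finger reader EBS (AOL_s00078g62) and the NuA4 subunit EAF7 (AOL_s00109g52) were listed at 0 in every library of the PkaC1 experiment, both strains. The SWI/SNF and RSC subunit ssr3 (AOL_s00109g158) was listed at 0 in 3 of its 4 groups. These 4 genes did not pass the filter on low values there, and 64 members were tested. In the Acy experiment all 68 members were above 0 in every library and all 68 were tested. Of 9617 genes that passed the filter in the Acy experiment, 234 (2.43%) were at 0 in every library of the PkaC1 experiment, against 4.41% of the members. A listed 0 can be a failed estimate. The fission yeast RSC ATPase match snf21 (AOL_s00215g680) was at 10.7, 9.71 and 5.23 TPM in untreated PkaC1 deletion libraries and at 2.41, 0.69 and 1.34 TPM in induced ones, and was listed at 0 in all 6 wild type libraries. No fold is given for it, and it passed the filter only through the deletion libraries. Counts of called members as deposited and after scaling are therefore given also without it where it was called, over 63 members. Counts with averaged wild type groups, with a replicate block or with a library left out keep it among the 64.

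In untreated libraries labelled PkaC1 deletion, 39 of 64 chromatin members were higher than in wild type and 6 were lower, with a median log2 fold change of 0.42. Without snf21 the counts were 38 and 6 of 63, with a median of 0.41. The background was 64.7% of all tested genes called, 40.7% higher and 24.0% lower, with a median of 0.20. By class, 9 of 12 acetylation members, 5 of 5 chaperones, 13 of 18 remodelling members (12 of 17 without snf21) and 5 of 9 histones were higher. Of 6 deacetylation members 3 were higher and 1 lower, and of 9 methylation members 3 and 1. Scaled to the same median, 31 members were higher and 12 lower (30 and 12 without snf21), where 62.8% of all tested genes were called, 29.7% higher and 33.1% lower. The authors' deposited table has 36 members higher and 12 lower, beside 24.8% and 24.5% of all its genes. Here and below its counts are over 68 members and 11479 genes, without the filter on low values. With averaged wild type groups 19 members were called, beside 33.4% of all tested genes.

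CENP-A (AOL_s00076g320), the centromeric H3, had the largest histone change. It was at 141, 76.2 and 86.7 TPM in untreated PkaC1 deletion libraries, against 25.0, 28.0 and 27.4 TPM in wild type (log2 fold change 1.83 ± 0.192, adjusted p = 7.12e-06). The groups did not overlap, and the change was 1.59 after scaling. H2B was at 2950, 2307 and 2324 TPM, against 1458, 1373 and 1427 TPM in wild type (0.82 ± 0.0937, adjusted p = 1.44e-05). Its neighbour H2A was at 1394, 1129 and 1084 TPM, against 786, 770.0 and 789 TPM (0.61 ± 0.104, adjusted p = 0.000336). All 3 deletion libraries exceeded all 3 wild type libraries for both genes, as they did for H1 (0.37 ± 0.064) and the low H4 gene AOL_s00006g399 (0.87 ± 0.127). These increases kept their direction and call after scaling (0.59, 0.38, 0.14 and 0.64), but those of H2A and H1 lost the call with averaged wild type groups.

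H3 and H2A.Z moved the other way. H2A.Z (AOL_s00215g287) was at 279, 339 and 297 TPM in untreated PkaC1 deletion libraries, against 459, 494 and 439 TPM in wild type (-0.61 ± 0.101, adjusted p = 0.000292). H3 was at 2985, 2355 and 2246 TPM, against 3014, 3049 and 3109 TPM (-0.28 ± 0.0973, adjusted p = 0.0232, and -0.52 after scaling). The call for H3 rested on single libraries: without deletion library 2 or 3 or wild type library 2 or 3 its adjusted p was 0.0551 to 0.0812. The H4.1 genes AOL_s00043g615 and AOL_s00117g1 were not called, at 0.19 and 0.08, values that scaling turned to -0.05 and -0.15.

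Among regulators, the RSC subunit match rsc7 (AOL_s00076g626) was at 43.5, 43.3 and 36.6 TPM in untreated PkaC1 deletion libraries, against 16.1, 16 and 17.4 TPM in wild type (1.27 ± 0.0982, adjusted p = 5.9e-07). The acetyltransferase mst2 (AOL_s00054g698), which acetylates H3 in fission yeast, was at 20.6, 15.3 and 11.7 TPM, against 6.10, 5.94 and 6.22 TPM (1.22 ± 0.167, adjusted p = 6.33e-05). Asf1 (AOL_s00054g628), the chaperone that hands over H3-H4, was at 114, 81.1 and 78.5 TPM, against 47.3, 48.3 and 48.4 TPM (0.89 ± 0.138, adjusted p = 0.000166). None of these groups overlapped. The sirtuin HST3 (AOL_s00210g180), which deacetylates newly made H3 in budding yeast, was also higher (1.19 ± 0.176, adjusted p = 0.000117).

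The other members lower in untreated PkaC1 deletion libraries, besides H3 and H2A.Z, were 4. The gene matching the methyltransferase EHMT1 (AOL_s00215g38) was at 6.33, 8.33 and 8.34 TPM, against 25.1, 25.0 and 25.5 TPM in wild type (-1.60 ± 0.135, adjusted p = 1.17e-06). Its annotated domains are ankyrin repeats only, with no methyltransferase domain. The INO80 subunit ies6 (AOL_s00043g71) was at 7.22, 5.89 and 6.76 TPM, against 19.7, 19.4 and 19.4 TPM (-1.43 ± 0.267, adjusted p = 0.000655). Clr3 (AOL_s00083g509), a deacetylase of silent chromatin in fission yeast, was at 30.9, 29.2 and 25.1 TPM, against 57.2, 59.0 and 56.3 TPM (-1.0 ± 0.115, adjusted p = 1.68e-05). Phf1 (AOL_s00054g69), a subunit of a fission yeast histone demethylase complex, was lower by a similar amount (-0.95 ± 0.132). All 4 kept direction and call after scaling, and ies6 lost it with averaged wild type groups.

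Other chromatin genes and replication genes were listed beside the members. The list of other chromatin genes was made by words in the annotation, such as bromodomain or SET domain. It therefore also holds genes of other roles, such as ribosomal methyltransferase matches (AOL_s00078g53, AOL_s00079g111) and the transcription factor IIH helicase XPB (AOL_s00054g169). Of its 74 tested genes 51 were higher and 7 lower in untreated PkaC1 deletion libraries (37 and 10 after scaling). Of 39 tested DNA replication genes 27 were higher and 1 lower (21 and 2 after scaling). Their summed level was 1158 to 1552 TPM in the deletion libraries, against 892 to 929 TPM in wild type, so these groups did not overlap. The part of replication activity in the histone differences was not tested.

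After induction the balance of the PkaC1 comparison was the opposite. In induced libraries labelled PkaC1 deletion 46 of 64 members were lower than in induced wild type and 5 were higher, with a median log2 fold change of -0.56. Without snf21 46 were lower and 4 higher. The background was 70.9% of all tested genes called, 52.0% lower and 18.9% higher, with a median of -0.40. All 5 chaperones, 11 of 12 acetylation members, 8 of 9 methylation members, 12 of 18 remodelling members and 4 of 6 deacetylation members were lower, and 4 of 9 histones. Scaling changed this balance to 25 lower and 14 higher (25 and 13 without snf21), where 63.9% of all tested genes were called, 32.1% lower and 31.8% higher. The authors' deposited table has 23 members lower and 10 higher, beside 25.0% and 26.4% of all its genes. With averaged wild type groups 24 members were called, beside 43.6% of all tested genes.

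The largest decreases at 10 TPM or more were 3 regulators. Eaf6 (AOL_s00043g707), a subunit of the NuA4 acetyltransferase in yeast, was at 21.3, 18.4 and 17.9 TPM in induced PkaC1 deletion libraries, against 48.3, 41.9 and 50.4 TPM in induced wild type (-1.25 ± 0.089, adjusted p = 4.19e-07). RPD3 (AOL_s00080g237), a class I deacetylase, was at 39.0, 48.4 and 43.6 TPM, against 107, 101 and 98.6 TPM (-1.21 ± 0.125, adjusted p = 6.35e-06). Ies6 was at 5.58, 2.05 and 6.02 TPM, against 10.1, 14.1 and 9.57 TPM (-1.22 ± 0.267, adjusted p = 0.00159). None of the 3 overlapped between strains, and after scaling they remained lower at -0.81, -0.76 and -0.84; the ies6 call was lost with averaged wild type groups. JHD1 (AOL_s00080g356), a demethylase of H3, and HIR3 (AOL_s00054g75), of the HIR histone chaperone, had the largest changes of their classes, at -0.86 ± 0.109 and -0.83 ± 0.101 (adjusted p = 3.16e-05 and 2.24e-05).

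The higher members, snf21 set aside, were swr1, rsc7, clr3 and the EHMT1 match. Swr1 (AOL_s00193g43), the ATPase that puts H2A.Z into nucleosomes, was at 13.7, 13.4 and 17.9 TPM in induced PkaC1 deletion libraries, against 5.45, 6.13 and 6.41 TPM in induced wild type (1.19 ± 0.188, adjusted p = 0.000156). Rsc7 (AOL_s00076g626) was at 32.4, 30.6 and 36.5 TPM, against 18.1, 18.8 and 16.1 TPM (0.87 ± 0.0982, adjusted p = 1.25e-05). Both groups were apart, and rsc7 AOL_s00076g626 was thus higher in the deletion libraries at both times. The other rsc7 match, AOL_s00054g101, differed. It was at 43.35, 34.17 and 29.73 TPM in untreated deletion libraries, against 19.01, 16.87 and 16.92 TPM in untreated wild type. After induction it was lower in the deletion, at 22.46, 24.65 and 21.44 TPM, against 41.09, 40.19 and 38.65 TPM. The EHMT1 match was at 0.68 (adjusted p = 0.000838) and was named after its values were seen. Clr3 was at 0.33 ± 0.115 (adjusted p = 0.0238); its adjusted p was 0.0932 without deletion library 3 and 0.0669 without wild type library 2, and its log2 fold change without that deletion library was 0.20.

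Of the histones, H4.1 (AOL_s00043g615) was at 765, 787 and 604 TPM in induced PkaC1 deletion libraries, against 1335, 1341 and 1388 TPM in induced wild type (-0.92 ± 0.134, adjusted p = 8.23e-05, and -0.46 after scaling). H3 was at 1179, 1241 and 1099 TPM, against 1761, 1759 and 1747 TPM (-0.58 ± 0.0973, adjusted p = 0.000234). The other lower ones were H2A.Z (-0.56) and the low H4 gene AOL_s00006g399 (-0.47). The calls of these last 3 were lost after scaling, at -0.12, -0.10 and -0.04. H2A, H2B, H1 and CENP-A were not called, with log2 fold changes of -0.10, -0.09, 0.06 and 0.28, and scaling put all 4 at a called increase (0.36, 0.37, 0.52 and 0.73). The second H4.1 gene, AOL_s00117g1, was at 177, 208 and 203 TPM, against 169.9, 157 and 147 TPM (0.31 ± 0.129, adjusted p = 0.0505, and 0.77 after scaling), and without deletion library 1 it was called (0.38, adjusted p = 0.0359). Outside the members, 42 of 74 other chromatin genes were lower and 12 higher (22 and 24 after scaling), and 28 of 39 replication genes were lower and 1 higher (20 and 7 after scaling). The conidiation genes summed to 233 to 268 TPM in the deletion libraries and 88.3 to 91.2 TPM in wild type.

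Induction of the PkaC1 deletion libraries gave the most uniform change. Of 64 members 60 were lower in induced than in untreated deletion libraries and none was higher, with a median log2 fold change of -1.34 (59 of 63 and -1.32 without snf21). Over all tested genes 81.6% were called, 62.2% lower and 19.4% higher, with a median of -0.72. All 9 histones, 12 of 12 acetylation members, 5 of 5 chaperones and 16 of 18 remodelling members (15 of 17 without snf21) were lower. The 4 uncalled members, named after their values were seen, were RPD3 (-0.08), phf1 (-0.19), ies6 (-0.55) and swr1 (0.11). After scaling 41 members were lower and 8 higher (40 and 8 without snf21), where 75.9% of all tested genes were called, 34.4% lower and 41.5% higher, with a median of 0.10. The authors' deposited table has 42 members lower and 7 higher, beside 27.9% and 27.8% of all its genes. The 8 higher after scaling, named after their values were seen, were RPD3, phf1, swr1, both rsc7 matches, H2A.Z, and the NuA4 and INO80 subunits eaf1 and ies4.

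JHD1 was at 11.9, 10.6 and 10.8 TPM in induced PkaC1 deletion libraries, against 83.9, 70.6 and 59.1 TPM in untreated ones (-2.57 ± 0.109, adjusted p = 1.72e-09). Mst2 was at 2.11, 2.65 and 2.47 TPM, against 20.6, 15.3 and 11.7 TPM (-2.28 ± 0.167, adjusted p = 1.39e-07). Esa1 (AOL_s00006g355), the catalytic subunit of NuA4, was at 6.02, 5.54 and 5.36 TPM, against 35.6, 26.6 and 22.7 TPM (-2.12 ± 0.147, adjusted p = 8.6e-08). Untreated levels were several times the induced ones in every library, and the 3 remained lower after scaling (-1.68, -1.51 and -1.27). Among the histones the lowest log2 fold changes were those of H4.1 and CENP-A. H4.1 (AOL_s00043g615) was at 765, 787 and 604 TPM in induced libraries, against 3064, 2387 and 2104 TPM in untreated ones (-1.80 ± 0.134). CENP-A was at 29.1, 28.8 and 25.1 TPM, against 141, 76.2 and 86.7 TPM (-1.79 ± 0.192). The other H4.1 gene, H2B, H2A, H4 AOL_s00006g399, H3 and H1 ranged from -1.57 to -1.03, and after scaling from -0.64 to -0.10, where H1 was no longer called.

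H2A.Z was the exception among the histones. It was at 297, 246 and 228 TPM in induced PkaC1 deletion libraries, against 279, 339 and 297 TPM in untreated ones, and these ranges overlapped (-0.25 ± 0.101, adjusted p = 0.0387). Without induced library 2 or 3 or untreated library 2 or 3 its adjusted p was 0.0527 to 0.155, and its log2 fold change was -0.17 without induced library 3 and -0.17 without untreated library 2. Scaling turned it to 0.68. Replication genes had 33 of 39 lower and 1 higher (23 and 6 after scaling), with sums of 577 to 666 TPM in induced and 1158 to 1552 TPM in untreated libraries, and other chromatin genes had 61 of 74 lower and 6 higher (38 and 19 after scaling). Summed conidiation genes were at 233 to 268 TPM in induced and 282 to 349 TPM in untreated libraries.

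**Figure D2:**
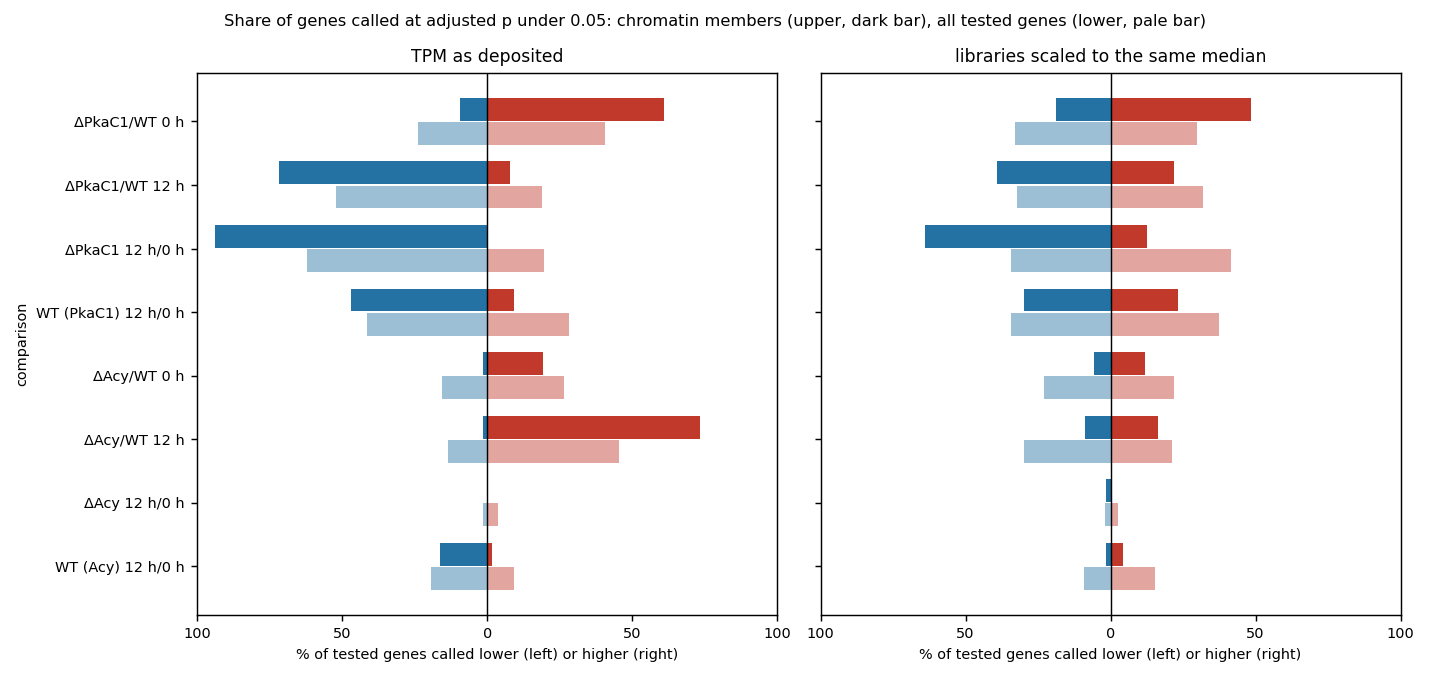
Share of genes called lower (left, blue) or higher (right, red) at adjusted p under 0.05, as percent of the genes tested, for the 8 comparisons of 2 groups; the upper, dark bar of each pair is the chromatin members and the lower, pale bar all tested genes, with TPM as deposited on the left and libraries scaled to the same median on the right. On induction of the PkaC1 deletion libraries 93.8% of members (snf21 included) were lower as deposited, against 62.2% of all genes; no member was called on induction of the Acy deletion libraries as deposited.

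Wild type libraries of the same experiment had fewer members called on induction. Of 64 members 30 were lower and 6 higher in induced than in untreated wild type, with a median log2 fold change of -0.30. Over all tested genes 69.7% were called, 41.6% lower and 28.1% higher, with a median of -0.16. The histones had 7 of 9 lower and none higher, methylation members 6 of 9 lower, and remodelling members 5 of 18 lower and 3 higher. After scaling 19 members were lower and 15 higher, where 72.0% of all tested genes were called, 34.5% lower and 37.5% higher. The authors' deposited table has 28 members lower and 15 higher, beside 31.1% and 30.6% of all its genes. With averaged wild type groups 9 members were called, beside 37.2% of all tested genes.

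In the PkaC1 experiment the EHMT1 match was at 1.98, 2.33 and 2.22 TPM in induced wild type, against 25.1, 25.0 and 25.5 TPM in untreated wild type (-3.05 ± 0.135, adjusted p = 3.4e-09). Clr3 was at 9.10, 8.68 and 9.12 TPM, against 57.2, 59.0 and 56.3 TPM (-2.55 ± 0.115, adjusted p = 4e-09). The H4.1 gene AOL_s00117g1 was at 169.9, 157 and 147 TPM, against 529, 545 and 577 TPM (-1.80 ± 0.129, adjusted p = 1.77e-07). All 3 stood well apart between the times, and scaling left them at -2.84, -2.33 and -1.57. The larger H4.1 gene AOL_s00043g615 changed less, at 1335, 1341 and 1388 TPM, against 2331, 2114 and 2112 TPM (-0.69 ± 0.134). H3, H1, H2A and H2B had log2 fold changes of -0.80 to -0.57, and of -0.57 to -0.34 after scaling. CENP-A (-0.24) and H4 AOL_s00006g399 (0.16) were not called, and after scaling H4 AOL_s00006g399 was called at 0.39. The call of H2A.Z (-0.30 ± 0.101, adjusted p = 0.0211) was lost after scaling and without induced library 1 or 3 or untreated library 2 (adjusted p 0.0595 to 0.0798). For the EHMT1 match, untreated libraries of the Acy experiment were uneven. They were at 15.9, 1.97 and 13.1 TPM in wild type and 3.22, 11.1 and 15.4 TPM in the deletion. Induced wild type libraries there were at 2.36, 2.0 and 1.47 TPM.

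Among the 6 higher members of induced wild type in the PkaC1 experiment, the rsc7 match AOL_s00054g101 was at 41.1, 40.2 and 38.6 TPM, against 19.0, 16.9 and 16.9 TPM in untreated wild type (1.14 ± 0.12, adjusted p = 4.78e-06). RPD3 was at 107, 101 and 98.6 TPM, against 54.9, 56.5 and 58.1 TPM (0.84 ± 0.125, adjusted p = 8.29e-05). Phd1, a deacetylase match of fission yeast, was at 37.4, 30.8 and 39.3 TPM, against 25.1, 23.6 and 25.7 TPM (0.51 ± 0.147, adjusted p = 0.00891). Groups did not overlap for these genes; the calls of RPD3 and phd1 were lost with averaged wild type groups. Replication genes had 11 of 39 higher and 9 lower (18 and 7 after scaling). Their sum was 905 to 906 TPM in induced and 892 to 929 TPM in untreated wild type, which overlap. Other chromatin genes had 13 of 74 higher and 32 lower (25 and 25 after scaling). The conidiation genes summed to 88.3 to 91.2 TPM in induced and 369 to 398 TPM in untreated wild type.

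The induction response differed between PkaC1 deletion and wild type for 56 of 64 members, tested as the difference of the 2 responses. It was lower in the deletion libraries for 52 (51 without snf21) and higher for 4, with a median of -1.0; among all tested genes 71.9% were called, 53.9% lower and 18.0% higher, with a median of -0.62. After scaling 34 members were lower and 13 higher (33 and 13 without snf21), where 64.1% of all tested genes were called, 31.0% lower and 33.1% higher. With averaged wild type groups 35 members were called, beside 43.8% of all tested genes. The 3 with the largest values were the EHMT1 match (2.28 ± 0.191, adjusted p = 1.71e-06), mst2 (-2.06 ± 0.235, adjusted p = 1.6e-05) and the SWI/SNF and RSC actin-related subunit arp9 (AOL_s00043g132, -1.98 ± 0.291, adjusted p = 9.83e-05). Arp9 averaged 5.86 TPM in induced and 19.9 TPM in untreated PkaC1 deletion libraries, and 13.4 TPM in induced and 10.2 TPM in untreated wild type. The other 3 higher ones, named after their values were seen, were clr3 (1.32), swr1 (1.23) and phf1 (0.54).

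Among the histones the difference was called for CENP-A (-1.55 ± 0.271, adjusted p = 0.00034), H4 AOL_s00006g399 (-1.34), H4.1 AOL_s00043g615 (-1.11), H2B (-0.92), H2A (-0.71) and H1 (-0.32). After scaling the first 3 remained called at -0.86, -0.68 and -0.42, H2B and H2A were not called (-0.22 and -0.01), and H1 turned to 0.37. H3 was not called at -0.30 (0.40 after scaling), nor were H2A.Z at 0.05 and H4.1 AOL_s00117g1 at 0.23 (0.74 and 0.92 after scaling, both called). H3 was called without untreated deletion library 1 (-0.17, adjusted p = 0.0403) or 3 (-0.38, adjusted p = 0.02), and AOL_s00117g1 without untreated deletion library 1 (0.40, adjusted p = 0.00655).

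Ratios of histone transcripts within a library do not depend on the scaling. They were chosen after the values were seen and are given without a test. CENP-A per 1000 H3 was 39.4 ± 7.55 in untreated PkaC1 deletion libraries and 8.77 ± 0.460 in untreated wild type. In induced libraries it was 23.6 ± 0.968 in the deletion and 12.9 ± 1.95 in wild type, and in each pair the ranges did not overlap. H2A.Z per H2A was 0.258 ± 0.0518 in untreated PkaC1 deletion and 0.594 ± 0.0429 in untreated wild type, and 0.562 ± 0.0715 in induced deletion and 0.772 ± 0.0262 in induced wild type. The H4.1 gene AOL_s00117g1 per AOL_s00043g615 was 0.117 ± 0.0108 in induced wild type of the PkaC1 experiment and 0.253 ± 0.0236 in untreated wild type. In the deletion libraries it was 0.277 ± 0.0536 induced and 0.234 ± 0.0162 untreated, ranges that overlap. H2A per H2B stayed between 0.465 and 0.561 in every library of the PkaC1 experiment. Over all libraries of the Acy experiment it was 0.881 to 1.235. H2A.Z per H2A was 0.114 to 0.187 there, and the ratio of the H4.1 genes was 0.328 to 0.433. The differences between the experiments were not tested. In the Acy experiment CENP-A per 1000 H3 was 28.6 ± 5.11 in induced deletion and 22.1 ± 1.89 in induced wild type, and 29.2 ± 6.02 in untreated deletion and 36.5 ± 7.83 in untreated wild type, and both pairs overlapped.

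**Figure D3:**
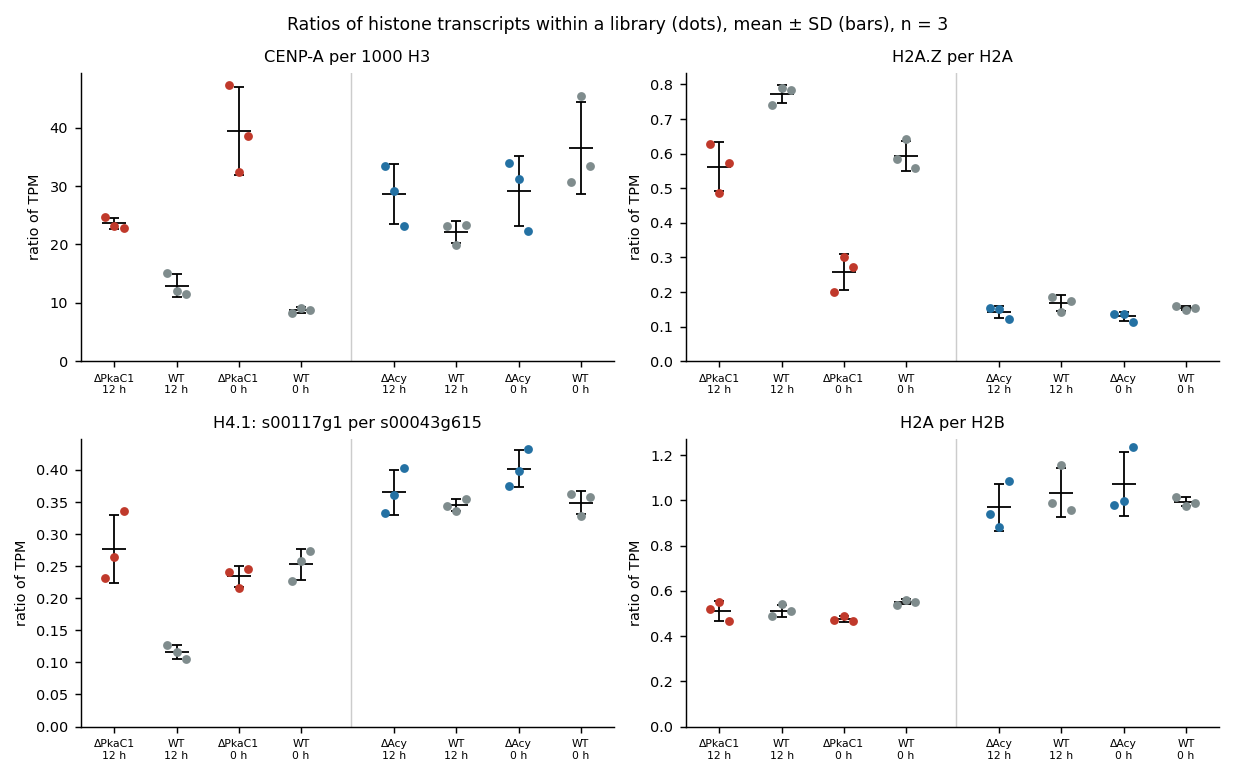
Ratios of TPM between histone genes within each library (y axis, linear, from 0) by group (x axis), with mean ± SD of 3 libraries; red is PkaC1 deletion, blue Acy deletion and grey wild type. In the PkaC1 experiment CENP-A per H3 is high in untreated deletion libraries (32.3 to 47.4 per 1000) and the ratio of the H4.1 genes is low in induced wild type (0.106 to 0.127).

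In untreated libraries labelled Acy deletion few members differed from wild type. Of 68 members 13 were higher and 1 lower, with a median log2 fold change of 0.27, while 42.1% of all tested genes were called, 26.6% higher and 15.6% lower. The share of members called was 20.6%. After scaling 8 were higher and 4 lower, where 45% of all tested genes were called, 21.9% higher and 23.1% lower. The authors' deposited table has 9 members higher and 3 lower, beside 18.2% and 16.9% of all its genes. The count changed when single libraries were left out. It was 7 and 8 without deletion library 1 and 2, and 9 and 7 without wild type library 1 and 3. The share of all tested genes was not taken for fits with a library left out or of only the 2 groups. Averaged wild type groups left 2 called members, SAS2 and E(z), beside 21.0% of all tested genes, and a fit of only the 2 groups left 9 called members.

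The acetyltransferase SAS2 (AOL_s00054g370), which acetylates H4 in budding yeast, was at 8.14, 7.29 and 6.38 TPM in untreated Acy deletion libraries, against 2.28, 2.77 and 2.51 TPM in wild type (1.23 ± 0.152, adjusted p = 3.57e-05). The H4.1 gene AOL_s00117g1 was at 2092, 1857 and 2268 TPM, against 989.9, 1241 and 1213 TPM (0.85 ± 0.174, adjusted p = 0.00164). The Polycomb-type methyltransferase match E(z) (AOL_s00004g197), which methylates H3, was at 10.6, 12.0 and 12.7 TPM, against 8.01, 6.53 and 5.38 TPM (0.75 ± 0.174, adjusted p = 0.00376). None of the groups overlapped and all 3 calls were kept after scaling (1.10, 0.70 and 0.62); that of AOL_s00117g1 was lost with averaged wild type groups. H4.1 AOL_s00043g615 and H3 were higher by 0.65 and 0.44, calls that scaling ended (adjusted p = 0.0883 and 0.116).

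Calls of 4 others were less firm. H4 AOL_s00006g399 was at 16.8, 21.4 and 18.4 TPM in untreated Acy deletion libraries, against 13.4, 10.9 and 10.6 TPM (0.65 ± 0.197, adjusted p = 0.0172, but 0.0667 without deletion library 2 and 0.0634 without wild type library 3). Rsc7 AOL_s00054g101 was higher by 0.83 ± 0.237 (adjusted p = 0.0132, but 0.0517 without deletion library 1 and 0.0607 without wild type library 1), and its groups overlapped. The deacetylase HOS3 (AOL_s00079g88) was higher by 0.50 ± 0.177 (adjusted p = 0.036), and its adjusted p was 0.0638 to 0.115 without any 1 of the deletion libraries or without wild type library 1 or 3. The single lower member, named after its values were seen, was the INO80 subunit ies4 (AOL_s00080g46, -0.44, adjusted p = 0.0457). H2A, H2B, H1, CENP-A and H2A.Z were not called (0.34, 0.25, 0.19, 0.11 and 0.09), and scaling turned the last pair to -0.04 and -0.06. Replication genes had 8 of 41 higher and 1 lower (3 and 2 after scaling). Other chromatin genes had 15 of 82 higher and 8 lower (11 and 9 after scaling). Summed conidiation genes were at 1321 to 1446 TPM in Acy deletion libraries and 613 to 976 TPM in wild type.

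In induced libraries labelled Acy deletion 50 of 68 members were higher than in induced wild type and 1 was lower, with a median log2 fold change of 0.61. The background was 59.2% of all tested genes called, 45.5% higher and 13.7% lower, with a median of 0.39. Acetylation members had 12 of 13 higher, histones 8 of 9, remodelling members 15 of 20, methylation members 7 of 10, deacetylation members 4 of 6 and chaperones 3 of 5. Most of these increases were not called after scaling, which left 11 higher and 6 lower, where 51.1% of all tested genes were called, 21.2% higher and 29.9% lower. The authors' deposited table has 20 members higher and 4 lower, beside 22.4% and 22.3% of all its genes. No share of all tested genes was taken for fits with 1 library left out. The count of called members was 34 to 52 when 1 library was left out, and 12 with averaged wild type groups, beside 33.3% of all tested genes.

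SAS2 was at 8.62, 10.1 and 8.91 TPM in induced Acy deletion libraries, against 2.86, 2.61 and 3.17 TPM in induced wild type (1.40 ± 0.152, adjusted p = 8.85e-06), so it was higher at both times. Dot1 (AOL_s00054g448), the methyltransferase of H3 lysine 79, was at 37.0, 35.0 and 29.1 TPM, against 14.7, 13.5 and 16 TPM (1.14 ± 0.177, adjusted p = 0.000169). Hrr1 (AOL_s00043g247), a helicase of RNAi-directed heterochromatin in fission yeast, was at 34.2, 22.2 and 19.2 TPM, against 10.8, 7.0 and 13.2 TPM (1.21 ± 0.262, adjusted p = 0.00181). These groups were apart, and the calls held after scaling at 0.97, 0.64 and 0.73. A further hrr1 match, AOL_s00078g403, was at 8.37, 6.88 and 5.21 TPM in the same comparison, against 4.82, 3.65 and 5.46 TPM, which overlap. H4 AOL_s00006g399 was at 22.6, 26.2 and 19.8 TPM, against 13.6, 8.54 and 8.03 TPM (1.13 ± 0.197, adjusted p = 0.000379, and 0.66 after scaling). Snf21 was higher by 1.12 ± 0.262, and rlf2 (AOL_s00054g201), the large subunit of chromatin assembly factor 1, by 0.97 ± 0.197 (0.62 and 0.50 after scaling, both still called). RPD3 was higher by 0.63 ± 0.151, which scaling ended (0.12).

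The other 7 called histones, with log2 fold changes of 0.39 (H1) to 0.80 (CENP-A), were no longer called in induced Acy deletion libraries once scaled. H2B, for one, was at 2278, 2332 and 2331 TPM, against 1418, 1567 and 1545 TPM in induced wild type (0.62 ± 0.148, adjusted p = 0.00349, and 0.10 after scaling). H1, H3 and H2A.Z changed sign under scaling, to -0.13, -0.06 and -0.22; H2A.Z had not been called (0.29 ± 0.118, adjusted p = 0.0505). The only lower member was eaf6, at 56.3, 54.0 and 50.8 TPM, against 76.1, 72.7 and 63.5 TPM (-0.39 ± 0.13, adjusted p = 0.0216, and -0.90 after scaling). Its adjusted p was 0.0533 to 0.0764 without deletion library 2 or 3 or wild type library 1 or 2. Replication genes had 30 of 41 higher and 1 lower (6 and 5 after scaling). Other chromatin genes had 61 of 82 higher and 2 lower (36 and 10 after scaling). The conidiation genes summed to 1137 to 1345 TPM in induced Acy deletion libraries and 7016 to 8852 TPM in induced wild type.

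Induction of the Acy deletion libraries gave no called member of 68 by limma, and 6 had an unadjusted p under 0.05. Over all tested genes 4.99% were called, 3.66% higher and 1.33% lower. All 9 histones lay between -0.37 and 0.26 on the log2 scale, and only H2A had groups that did not overlap, at 2143, 2054 and 2532 TPM in induced Acy deletion libraries, against 2981, 2610 and 2726 TPM in untreated ones (-0.31 ± 0.15, adjusted p = 0.254). After scaling 1 member was called, the methyltransferase set9 (AOL_s00043g474, -0.59, adjusted p = 0.0415), named after its values were seen, where 4.60% of all tested genes were called, 2.60% higher and 2.0% lower. The authors' deposited table has 1 member higher and 1 lower, beside 4.11% and 3.18% of all its genes. Summed conidiation genes were at 1137 to 1345 TPM in induced and 1321 to 1446 TPM in untreated libraries.

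In induced wild type of the Acy experiment 11 of 68 members were lower than in untreated wild type and 1 was higher, with a median log2 fold change of -0.32. Over all tested genes 28.6% were called, 19.4% lower and 9.20% higher, with a median of -0.19. After scaling 1 member was lower and 3 were higher, where 24.5% of all tested genes were called, 9.29% lower and 15.2% higher. The authors' deposited table has 5 members lower and 2 higher, beside 10.7% and 12.6% of all its genes. For fits without single libraries the share of all tested genes was not taken. The count of 12 was 6 and 5 without induced library 1 and 2, and 5 and 4 without untreated library 2 and 3; with averaged wild type groups it was 0 by limma, with 2 members at an unadjusted p under 0.05, beside 2.08% of all tested genes. Rlf2 was at 7.91, 6.63 and 7.48 TPM in induced wild type, against 15.3, 17.0 and 14.4 TPM in untreated wild type (-0.99 ± 0.197, adjusted p = 0.00323, and -0.79 after scaling). Clr3, the single higher member, was at 55.7, 42.9 and 63.3 TPM, against 37.7, 28.1 and 29.5 TPM (0.74 ± 0.163, adjusted p = 0.00604, and 0.97 after scaling). Neither gene overlapped between times, and both calls were lost with averaged wild type groups. Clr3 thus had a positive value here and -2.55 in the wild type of the PkaC1 experiment; the difference between the experiments was not tested.

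Histones called lower in induced wild type of the Acy experiment were CENP-A (-0.81), H2B (-0.54), H2A (-0.49) and H2A.Z (-0.37), with adjusted p of 0.0183 to 0.0342, and HIR3 was lower by 0.63 on the log2 scale (adjusted p = 0.043). All 5 calls ended after scaling (adjusted p 0.0674 to 0.438) and when single libraries were left out. Adjusted p was 0.0512 to 0.087 for CENP-A without induced library 1 or 2 or untreated library 2 or 3. For H2A it was 0.0809 to 0.0967 without induced library 1 or 3 or untreated library 2 or 3. For H2B it was 0.059 to 0.066 without induced library 1 or untreated library 2 or 3. For H2A.Z it was 0.0704 to 0.106 without any 1 induced library or untreated library 2 or 3, and for HIR3 0.0538 to 0.174 without induced library 2 or 3 or any 1 untreated library. H1, H3 and the 3 H4 genes were not called (-0.26 to -0.12). Replication genes had 19 of 41 lower and none higher (8 and 1 after scaling), and other chromatin genes 24 of 82 lower and 3 higher (14 and 3 after scaling). The conidiation genes summed to 7016 to 8852 TPM in induced and 613 to 976 TPM in untreated wild type.

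The induction response differed between Acy deletion and wild type for 3 of 68 members, all higher in the deletion, against 19.3% of all tested genes, 14.2% higher and 5.10% lower. They were HIR3 (1.05 ± 0.299, adjusted p = 0.0319), rlf2 (0.94 ± 0.279, adjusted p = 0.0369) and ies2 of the INO80 complex (AOL_s00081g285, 0.58 ± 0.164, adjusted p = 0.0308). HIR3 averaged 24.1 TPM in induced and 17.8 TPM in untreated Acy deletion libraries, and 14.8 TPM in induced and 22.9 TPM in untreated wild type. None of these calls was kept after scaling (adjusted p = 0.0585, 0.0777 and 0.284), nor with averaged wild type groups, where 0.811% of all tested genes were called. After scaling 2 others were called lower, eaf6 (-0.76) and phf1 (-0.69), named after their values were seen, where 15.1% of all tested genes were called, 5.34% higher and 9.76% lower. The count was 13 without induced deletion library 3, 6 without untreated deletion library 2, and 0 without induced deletion library 1 or 2, untreated deletion library 3, induced wild type library 2 or untreated wild type library 2 or 3. It was 1 without induced wild type library 3 or untreated wild type library 1. No share of all tested genes was taken for fits with a library left out. No histone was called, with values of -0.18 to 0.69.

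Some members had one direction in both deletion comparisons of an experiment, or differed between the times. Since comparisons within an experiment share libraries, their values are only set side by side. All values here are from TPM as deposited. For PkaC1 the median of all tested genes was itself positive untreated and negative induced, and for Acy it was positive induced. Whether the changes of sign between times remained after scaling is not given here. Rsc7 AOL_s00076g626 was at 1.27 untreated and 0.87 induced for PkaC1 deletion against wild type, and eaf6 at 0.09 and -1.25. Mst2 was at 1.22 and -0.84, asf1 at 0.89 and -0.74, and gcn5 (AOL_s00080g69), the SAGA acetyltransferase, at 0.94 and -0.53; gcn5 was chosen after its values were seen. For Acy deletion against wild type SAS2 was at 1.23 and 1.40, E(z) at 0.75 and 1.02, and Dot1 at 0.62 and 1.14.

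**Figure D4:**
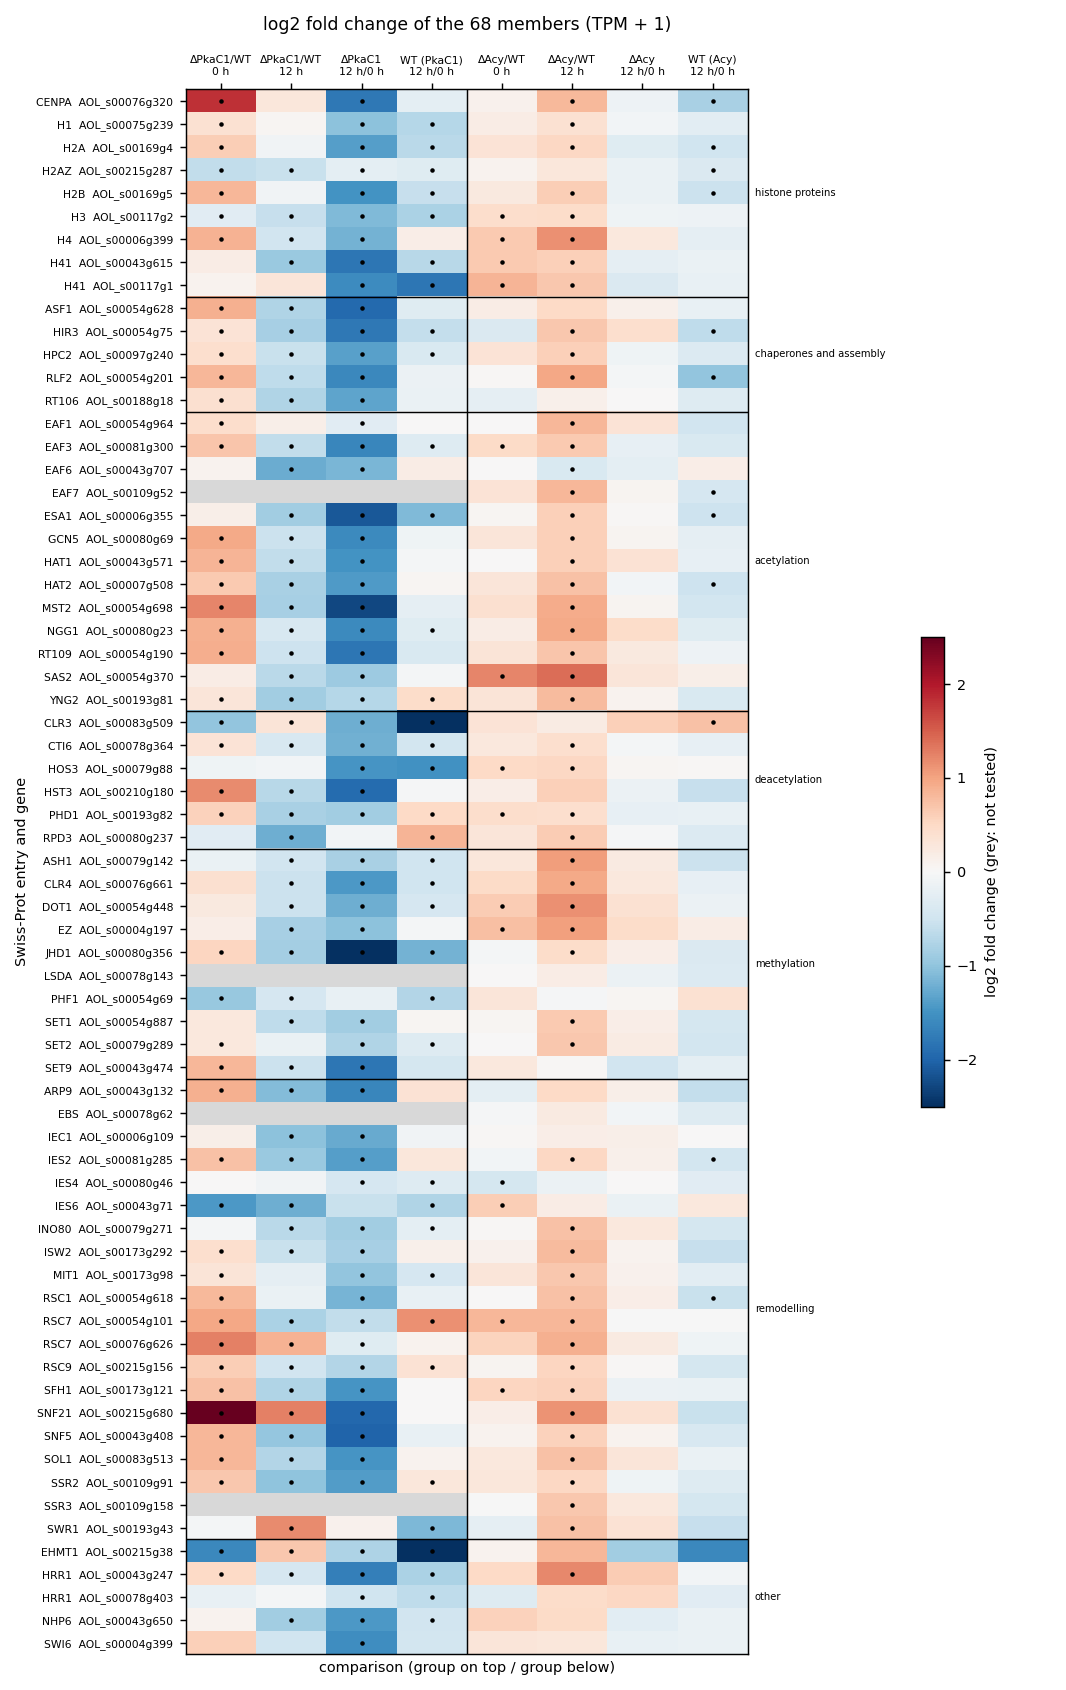
Log2 fold change (colour, red higher and blue lower, limits of the scale at 2.5 either way) of the 68 members (rows, by Swiss-Prot entry and gene, grouped by class) in the 8 comparisons of 2 groups (columns), with a dot where limma's adjusted p is under 0.05 and grey where a member was not tested. The column of induction of the PkaC1 deletion libraries is blue with a dot for 60 of 64 tested members; snf21 is coloured by its fitted value although it was listed at 0 in wild type of that experiment.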

How the data were processed

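Transcript levels were deposited by the authors as TPM per library, and the columns of each table add up to the same total, so depth is unknown and no counting interval can be given. The authors also deposited their own comparisons, with log2 fold values and p-values per the file headers, made with a tool that is not given in the sources used here. HISAT2 and StringTie are named without versions, per the submitters' processing notes, and the genome build is not given in the sources used here. Another 8 columns, the authors' group means, were not used.

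Groups and replicate numbers came from the sample titles. The submitters' design text speaks of 3 biological replicates but names another mutant, and no label says that libraries came from separate cultures, so p-values measure only the spread between libraries.

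A gene was tested where 3 or more of an experiment's 12 libraries had it at 1 TPM or above (8977 genes in the PkaC1 and 9617 in the Acy experiment). Fold changes are on the log2(TPM + 1) scale, so changes of low genes are understated. Means of 4 groups were fitted per experiment with limma 3.58.1 (limma-trend) in R 4.3.3, with Benjamini-Hochberg adjustment over all tested genes. Comparisons within an experiment share libraries, and none was made between tables. The fit of each experiment was tested on simulated data whose changes were known, only for induced deletion against induced wild type libraries. Each simulated gene had the same spread in all groups, so the effect of unequal spread between groups was not tested.

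Alternatives were a pseudocount of 0.1, no filter, a minimum of 5 TPM, scaling every library to 1 common median, a replicate block, robust variances, only the 2 groups compared, each wild type group averaged into 1 library (4 residual degrees of freedom, the lone libraries assumed to vary like the deletion libraries), and each library left out. Replicate numbers were taken to pair libraries where deviations from group means correlated above 0.1 in every pair. This held for induction of the Acy deletion libraries (r = 0.137 to 0.435), where 0 members were called with and without the block. Only 1 induced library there correlated best with the untreated library of its own number, so the pairing is uncertain.

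Genes are named by rule. They are all 9 histones; for each comparison the 3 called members that rose most and the 3 that fell most, if the higher group averaged at least 10 TPM and groups did not overlap; the largest called change of each other class between strains; the 3 largest called differences of responses; and members listed at 0. Others are marked as chosen after their values were seen. Members, classes and the lists of replication, conidiation and other chromatin genes were chosen with earlier results of these data known. Promoter motifs were not analysed here.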

Additional observations from a re-analysis of the deposited data

Results flagged for a closer look

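The induction response differed between strains, tested as the difference of both responses, for 56 of 64 members in the PkaC1 experiment and for 3 of 68 in the Acy experiment. Over all tested genes 71.9% and 19.3% differed. Without snf21 the PkaC1 response was lower in the deletion libraries for 51 of 63 members and higher for 4. Of the named members in the PkaC1 experiment, the response of the deletion libraries minus that of wild type was -2.06 for mst2 (AOL_s00054g698), -1.98 for arp9 (AOL_s00043g132) and 2.28 for the EHMT1 match (AOL_s00215g38) on the log2 scale. Among histones it was -1.55 for CENP-A (AOL_s00076g320), -1.34 for H4 (AOL_s00006g399) and -1.11 for H4.1 (AOL_s00043g615). It was -0.92 for H2B (AOL_s00169g5), -0.71 for H2A (AOL_s00169g4) and -0.32 for H1 (AOL_s00075g239). After scaling CENP-A and these H4 and H4.1 genes remained called, H2B and H2A did not, and H1 changed sign. In the Acy experiment the 3 members were HIR3 (AOL_s00054g75, 1.05), rlf2 (AOL_s00054g201, 0.94) and ies2 (AOL_s00081g285, 0.58). None of these 3 calls was kept after scaling, and each was lost without some single library.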

How the results depend on the processing

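TPM keep no read counts, so what depth limits cannot be said. Of 118 named fold changes 95 were called. All 95 calls held with a pseudocount of 0.1, with a filter of 5 TPM and with robust variances, 94 held without a filter and 78 of the 83 that could be refitted held with only the 2 groups compared. After scaling to the same median 67 held, 24 were lost and 4 changed sign; with averaged wild type groups 51 held and 44 were lost. Of the 95, 16 lost the call or their sign without some single library. Where a call or sign changed, the cause was not tested.

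The count of called members with averaged wild type groups was 19 for untreated and 24 for induced PkaC1 deletion against wild type, 9 for induction of that wild type and 35 for the difference of responses, beside 33.4%, 43.6%, 37.2% and 43.8% of all tested genes. In the Acy experiment it was 2 for untreated and 12 for induced deletion against wild type, and 0 by limma for both induction of the wild type and the difference of responses (2 and 1 at an unadjusted p under 0.05), beside 21.0%, 33.3%, 2.08% and 0.811% of all tested genes. Scaling gave 17 for induced Acy deletion against wild type, 1 for induction of the Acy deletion and 4 for induction of its wild type. With only the 2 groups compared the untreated Acy count was 9. No share of all tested genes was taken for that fit or for those with 1 library left out. Leaving out 1 library gave 7 to 17 for untreated Acy deletion against wild type, 34 to 52 for induced, 4 to 10 for induction of its wild type and 0 to 13 for the difference of responses. It gave 41 to 45, 48 to 52, 58 to 61, 30 to 33 and 53 to 58 for the untreated, induced, deletion induction, wild type induction and difference counts of the PkaC1 experiment.

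With the replicate block, the counts of the PkaC1 experiment were 45, 50, 60, 35 and 56, and those of the Acy experiment 13, 50, 0, 9 and 4, for untreated, induced, deletion induction, wild type induction and difference. The share of all tested genes called was not taken for fits with the block. Only the call of H2A.Z on induction of wild type in the Acy experiment was lost among the 95 named ones. Where numbers were not taken to pair the libraries they share only a number.

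Signs changed after scaling as follows. In induced Acy deletion against wild type H1 was at -0.13, H3 at -0.0567 and H2A.Z at -0.22, and in untreated ones CENP-A at -0.037 and H2A.Z at -0.0579. In induced PkaC1 deletion against wild type H2A was at 0.36 and H2B at 0.37, and in untreated ones AOL_s00043g615 was at -0.0458 and AOL_s00117g1 at -0.15. The difference of responses for PkaC1 was 0.37 for H1 and 0.40 for H3, and H2A.Z was at 0.68 on induction of that deletion. On induction of wild type in the Acy experiment AOL_s00043g615 was at 0.06, AOL_s00117g1 at 0.0437 and H3 at 0.11. Leaving out 1 library gave ranges that span 0 for 5 uncalled values. They were -0.0778 to 0.38 for CENP-A and -0.0033 to 0.19 for H2A.Z in untreated Acy deletion against wild type, -0.17 to 0.0027 for H2A in induced and -0.0955 to 0.17 for AOL_s00117g1 in untreated PkaC1 deletion against wild type, and -0.062 to 0.13 for H2A.Z in the PkaC1 difference of responses.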
